A study of Homo sapiens with 16 samples.

Results

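The genes described here are 33 members of the machinery that makes cholesterol and fatty acids, taken from a list of gene symbols. No threshold in these data was applied, but the list was chosen with earlier results of these data known. They are 5 regulators (SREBF1, SREBF2, SCAP, INSIG1 and INSIG2), 7 enzymes of the mevalonate pathway, 11 enzymes that turn its product into sterols, 1 sterol carrier (STARD4) and 9 enzymes of fatty acid synthesis, elongation and desaturation. All 33 were found among the 35052 genes to which a transcript could be assigned, and all 33 passed the low-count filter that left 17559 genes for testing. The least covered value of any member was 69.0 estimated reads in a library, for PMVK. RNA was measured in wild-type (WT) K562, a human leukaemia line with erythroid features that has long been established in culture. Cells were taken at 0 h and after treatment with 25 nM PMA for 0.5, 1.5 and 3 h, and for 6, 24, 48 and 72 h. PMA is a phorbol ester that activates protein kinase C and is used to move K562 cells towards a megakaryocyte-like state. Each time point had 2 libraries of total RNA depleted of ribosomal RNA, 16 in all, with 27285773 to 54056289 estimated reads. The 0 h libraries are the only untreated ones. The medium was replaced at 24 and 48 h, so PMA, time in culture and fresh medium cannot be told apart. The labels do not say whether the 2 libraries of a time point came from separate cultures, so p-values measure the spread between these libraries, which may be technical.

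Cells sense sterols in the membrane of the endoplasmic reticulum. SREBF1 and SREBF2 encode membrane-bound precursors of transcription factors (the SREBPs) that are held there by the escort protein SCAP and the retention proteins INSIG1 and INSIG2. When sterols are scarce the precursors move to the Golgi, are cut by proteases, and their freed fragments switch on genes of sterol and fatty acid synthesis, with SREBF2 acting mainly on the sterol genes and SREBF1 mainly on the fatty acid genes. INSIG1 is itself a target of these factors, which closes a feedback loop.

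Factors of this family bind short sterol regulatory elements, often beside a CCAAT box, the site of the factor NF-Y. RefSeq promoter windows (GRCh38.p14, from 250 bases before to 50 bases after a gene's start) were found for 29 of the 33 members, the others being SQLE, FDFT1, FASN and ACAT2. Where a gene had several windows, the one nearest the start of its most abundant transcript was taken, at a distance of up to 7868 bases for INSIG2. The letters CCAAT, read on both strands, were in 20 of these 29 windows (69.0%), against 34.6% of the 35116 windows in the table. At least 2 copies were in 14 of the 29 (48.3%), against 10.8% of all windows. By role, CCAAT was in 8 of 9 windows of sterol enzymes, 5 of 6 of the mevalonate pathway, 4 of 8 of fatty acid synthesis and 2 of 5 of regulators. A form of the sterol regulatory element, TCACNCNAC, was in 5 of the 29 windows (17.2%), those of SREBF2, FDPS, HSD17B7, ACSS2 and FADS2, against 2.55% of all windows. The letters CACGTG, the E-box that these factors can also bind, were in 5 of the 29, against 7.26% of all windows. All windows in the table include several for some genes and were not limited to the genes tested here, while each member has a single window. The shares are therefore not from sets built alike. These are matches of letters, and no binding was measured. The following stretches are the parts of 8 windows, before the start and outside any annotated exon, of 5 members that were higher at 3 h (INSIG1, HMGCS1, IDI1, MSMO1 and STARD4), of 2 that were much lower from 24 h (LSS and SCD), and of FDPS, which holds both the CCAAT and the sterol element letters. They are written 5′ to 3′ on the gene's strand, and capitals mark CCAAT on either strand and, in FDPS, also TCACNCNAC.
INSIG1 (chr7:155297628-155297775, plus strand): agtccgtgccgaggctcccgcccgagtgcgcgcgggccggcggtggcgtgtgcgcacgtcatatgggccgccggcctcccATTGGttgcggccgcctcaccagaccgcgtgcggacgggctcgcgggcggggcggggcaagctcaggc
HMGCS1 (chr5:43313513-43313662, minus strand): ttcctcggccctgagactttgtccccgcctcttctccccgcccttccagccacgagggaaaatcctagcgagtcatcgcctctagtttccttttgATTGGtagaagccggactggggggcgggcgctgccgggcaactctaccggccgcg
IDI1 (chr10:1049171-1049369, minus strand): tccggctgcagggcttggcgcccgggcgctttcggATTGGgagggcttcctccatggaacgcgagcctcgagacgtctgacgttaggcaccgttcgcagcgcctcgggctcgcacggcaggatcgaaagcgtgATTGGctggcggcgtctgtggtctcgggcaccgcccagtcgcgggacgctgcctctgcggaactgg
MSMO1 (chr4:165327419-165327622, plus strand): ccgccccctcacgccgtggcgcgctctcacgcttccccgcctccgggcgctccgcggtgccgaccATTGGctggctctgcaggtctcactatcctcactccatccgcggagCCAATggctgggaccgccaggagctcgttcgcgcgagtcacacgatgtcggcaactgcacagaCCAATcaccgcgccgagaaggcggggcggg
STARD4 (chr5:111512591-111512785, minus strand): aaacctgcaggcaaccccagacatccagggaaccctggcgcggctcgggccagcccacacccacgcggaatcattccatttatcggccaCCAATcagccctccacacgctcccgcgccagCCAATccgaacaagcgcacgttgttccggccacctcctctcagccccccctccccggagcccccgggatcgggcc
LSS (chr21:46228825-46229024, minus strand): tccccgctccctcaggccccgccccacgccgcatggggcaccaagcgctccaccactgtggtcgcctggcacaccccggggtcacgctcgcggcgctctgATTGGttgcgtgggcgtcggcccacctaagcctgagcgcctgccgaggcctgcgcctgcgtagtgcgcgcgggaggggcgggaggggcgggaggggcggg
SCD (chr10:100346983-100347123, plus strand): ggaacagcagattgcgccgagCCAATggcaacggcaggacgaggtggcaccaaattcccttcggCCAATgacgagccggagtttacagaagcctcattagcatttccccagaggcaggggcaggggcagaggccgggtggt
FDPS (chr1:155308616-155308747, plus strand): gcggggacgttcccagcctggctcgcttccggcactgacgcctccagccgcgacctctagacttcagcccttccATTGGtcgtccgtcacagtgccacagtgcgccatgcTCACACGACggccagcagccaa
The printed stretches of the 5 early genes hold 1 to 3 CCAAT boxes each, and those of LSS and SCD, which did not rise early, hold 1 and 2. Of the 9 members higher at 3 h, 7 had a window, and CCAAT was in 6 of those 7 and TCACNCNAC in 0. The early gene whose window held no CCAAT was CYP51A1, and its stretch of 73 bases is not printed here.

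Reads on the 33 members made up 0.723 and 0.743% of a library's assigned reads at 0 h. The share was 0.957 and 0.893% at 3 h, 0.595 and 0.571% at 6 h, and 0.372% in both libraries at 24 h. It was 0.441 and 0.434% at 48 h and 0.410 and 0.402% at 72 h, so every library from 6 h on lay below both 0 h libraries and both 3 h libraries lay above them. A few genes weigh most in this share. INSIG1 alone held 80966 of 397704 and 56490 of 282340 member reads at 3 h, against 7774 of 206872 and 6616 of 209167 at 0 h. FADS1, SCD and FASN held the most member reads at 0 h, 29335 to 36032 each. In bulk RNA, fewer cells that make a transcript and less of it per cell cannot be told apart. As whole-series facts, summed TPM of 9 erythroid genes that mark K562 was 5127 to 5552 at 0 h and 3521 to 4755 at 72 h, and that of 8 megakaryocyte genes was 36.6 to 44.9 at 0 h and 1756 to 1836 at 72 h. Summed TPM was 107 to 124 and then 99.5 to 110.4 for 6 monocyte and macrophage genes, 24.3 to 36.1 and then 60.3 to 75.5 for 6 T and B cell genes, and 19.997 to 20.3 and then 99.97 to 136 for 6 fibroblast and endothelial genes. Genes within a sum did not move alike. In TMM-scaled read counts (CPM), THBS1 went from 3.53 and 3.54 at 0 h to 4916 and 4271 at 72 h, and ITGB3 from 1.75 and 1.29 to 1176 and 1008. CD9 and VWF were also higher, at up to 40.5 and 2.03 CPM at 72 h. ITGA2B was at 52.6 and 62.9, then 59.4 and 64.4, and GP1BA, GP9 and PF4 never passed 0.1115. Among erythroid genes KLF1 went from 43.8 and 61.4 to 2.90 and 2.84, and TAL1 from 175 and 192 to 249 and 218. The part of these changes in the results below was not tested. Across 9983 genes the difference between the 2 libraries went with GC content at 0 h (Pearson r = -0.73, a description) and at 72 h (r = -0.57), against -0.32 to 0.38 at the other times. The log2 fold change at 0.5 h and at 1.5 h went with GC content too (r = -0.76 and -0.43), against -0.17 to 0.14 in the later comparisons.

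Levels of single genes are given as CPM, read counts per library size after TMM scaling, for replicates 1 and 2 in that order. Changes are log2 fold changes with their standard error (SE) from edgeR's quasi-likelihood test, and a gene is called higher or lower at a Benjamini-Hochberg adjusted p under 0.05 over all genes tested. At 0.5 h no member was called (all genes: 0.171% called, 0.165% higher and 0.0057% lower), and DESeq2 called 0 of 32. At 1.5 h 7 members were higher and 3 lower (all genes: 17.1% called, 9.05% higher and 8.05% lower). At 3 h 9 were higher and 4 lower (all genes: 42% called, 21.5% higher and 20.5% lower). At 6 h the balance turned, with 7 higher and 20 lower (all genes: 57.2% called, 27.8% higher and 29.4% lower). At 24 h 7 were higher and 24 lower (58.3% called, 31.7% higher and 26.6% lower). At 48 h and at 72 h 6 were higher and 20 lower (54.3 and 58.6% of all genes called, 30.2 and 31.7% higher, 24.1 and 26.9% lower). The median log2 fold change of the 33 members was -0.65 at 6 h (all genes: 0.00) and -0.57 at 24 h (all genes: -0.01). It was -0.54 at 48 h (all genes: -0.02) and -0.74 at 72 h (all genes: -0.03). At 3 h the members' median was 0.11 beside 0.00 for all genes, and within replicate numbers it was 0.34 and -0.11, so it had no settled sign. These comparisons all share the 0 h libraries.

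The 1.5 h count rested on single libraries: 3 members were called without the second 0 h library or without the second 1.5 h library, and 4 without the first 1.5 h library. At 0.5 h 13 were called without the first 0 h library. Scaling to total counts left the median log2 fold change of all genes at -0.12 at 1.5 h and at -0.28, -0.35, -0.26 and -0.19 at 3, 6, 24 and 72 h, and the split of members became 6 higher and 7 lower at 1.5 h, 8 and 13 at 3 h, then 3 and 25 at 24 h. The 6 h median was -1.02 under that scaling and -0.38 with each library's trend on GC content removed, and all 3 values are below 0. The members' median GC content was 50.5%, against 49.1% for all genes tested, but single members ranged from 37.6 to 66.0%. The 7 members higher at 1.5 h (MSMO1, STARD4, IDI1, CYP51A1, HMGCS1, ELOVL5 and INSIG1) had 38.5 to 46.5%. The 3 lower at that time (LSS, SCAP and SREBF1) had 59.0 to 62.8%. At 3 h the 9 higher members had 38.5 to 49.7%, and the 4 lower ones 44.8 to 62.8%. The part of GC content in this early split was not tested.

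**Figure D1:**
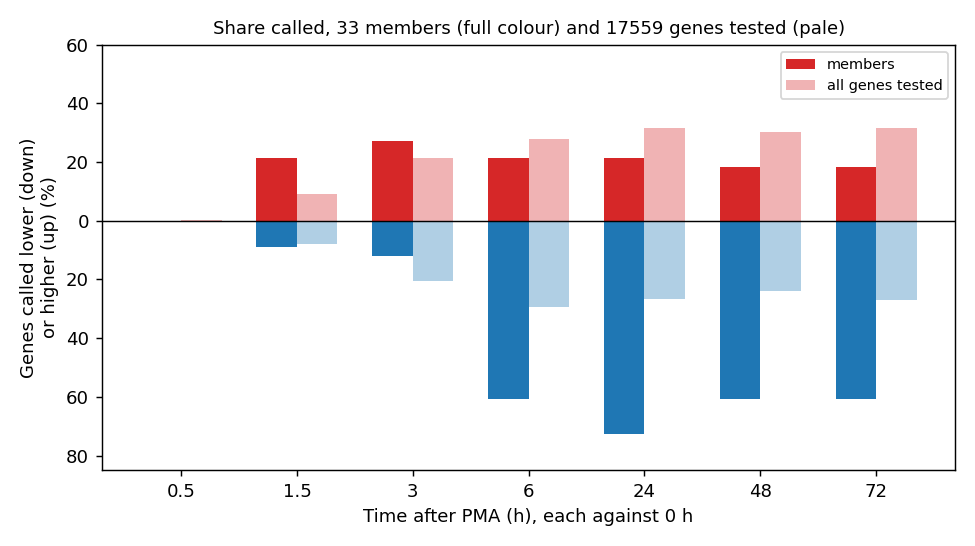
Share of the 33 members (full colour) and of all 17559 genes tested (pale) called higher (above the line) or lower (below it) at each time after PMA against 0 h, by edgeR at an adjusted p under 0.05. From 6 h on, the bars for members called lower reach 20 or 24 of 33, against 24.1 to 29.4% of all genes, and the bars for members called higher are shorter than those for all genes.

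Over the whole course 32 of the 33 members differed between time points (82.9% of all genes did, edgeR quasi-likelihood test), the exception being SC5D (edgeR adjusted p = 0.221). The 33 did not move as one. Mean levels were highest at 0 h for 9 members, at 3 h for 11 and at 6 h for 5, and lowest at 6 h for 10, at 24 h for 8 and at 72 h for 10. Members called lower at 24, 48 and 72 h numbered 19, and 5 were called higher at all of these times (INSIG2, MSMO1, NSDHL, SQLE and STARD4), against 18.5% and 24.4% of all genes. Of the 9 members higher at 3 h, 7 were also higher at 6 h, 5 were lower at 24 h and 3 were higher at 72 h. The shares of all genes with these joint patterns were not computed, so these counts only describe the 9 members. The members called in both directions at different times (11.7% of all genes were) were INSIG1, INSIG2, ACAT2, HMGCS1, PMVK, CYP51A1, ELOVL5 and FADS2.

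**Figure D2:**
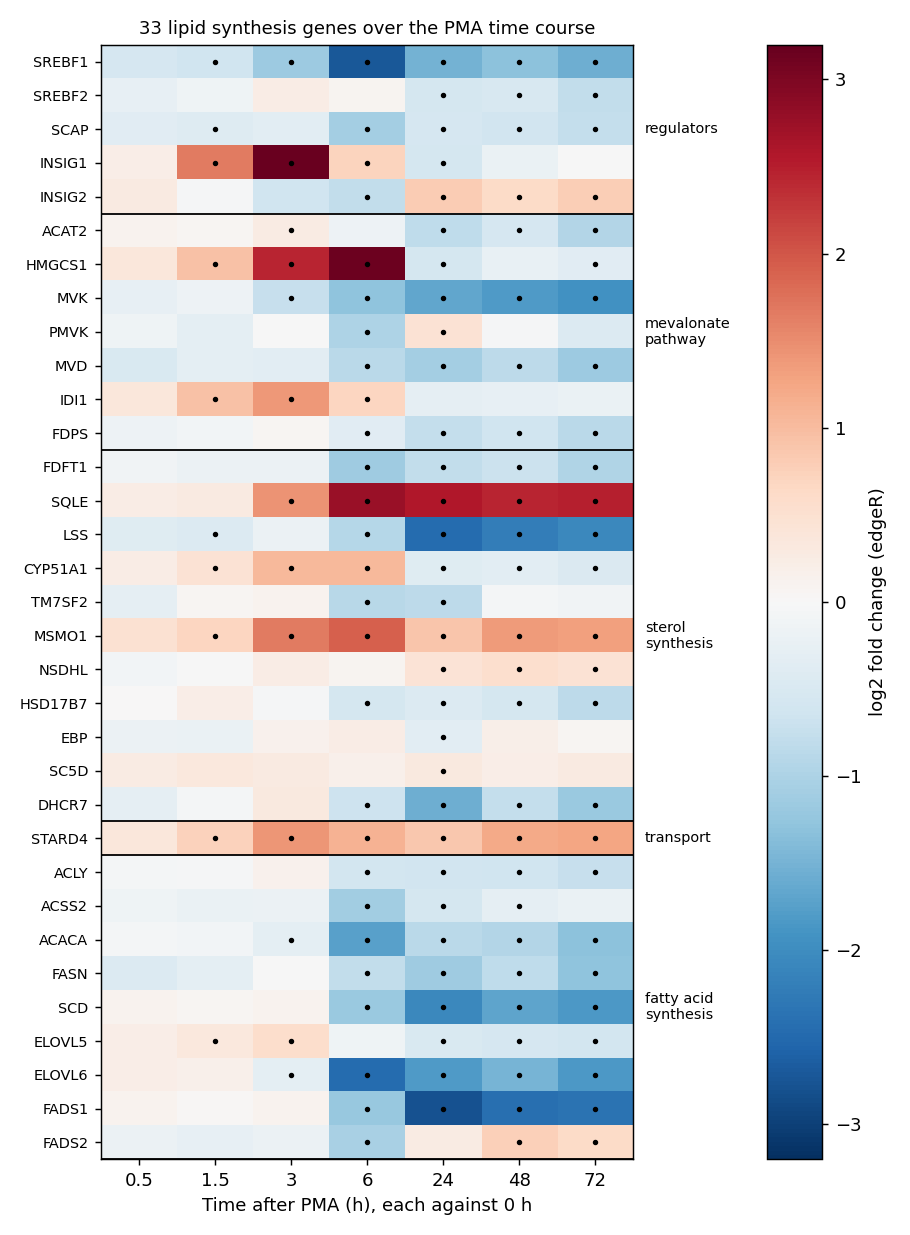
Log2 fold change of each member (rows, grouped by role) at 7 times after PMA against 0 h (columns), from edgeR. Red is higher and blue lower than at 0 h, and a dot marks an adjusted p under 0.05. Red cells gather at 1.5 to 6 h in INSIG1, HMGCS1, IDI1, SQLE, CYP51A1, MSMO1 and STARD4, and blue cells fill most rows from 6 h on.

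Among the regulators, SREBF1 and INSIG1 moved in opposite directions in the first hours. SREBF1, the precursor gene tied mainly to fatty acid synthesis, was at 112 and 159 CPM at 0 h, 95.3 and 91.6 at 0.5 h, 88.4 and 85.9 at 1.5 h, then 69.4 and 51.7 at 3 h. It was at 20.8 and 20.4 CPM at 6 h, 42.8 and 51.1 at 24 h, 51.4 and 58.3 at 48 h, then 37.1 and 54.9 at 72 h. The 6 h libraries were the lowest of all, and no treated library reached the 0 h range. The log2 fold change was -1.16 (SE 0.19) at 3 h, -2.71 (SE 0.21, edgeR adjusted p = 7.65e-08) at 6 h and -1.55 (SE 0.20, edgeR adjusted p = 1.13e-05) at 72 h, and the rise from 6 to 24 h was called (1.19, SE 0.20). At 1.5 h it was -0.63, a call lost without the second 0 h library (-0.36) and without any one of the 0.5, 1.5 or 6 h libraries. SREBF1 lies on chromosome 17 at 17810399 to 17837002 (GRCh38) and overlaps RAI1 on the other strand. Whether reads were assigned by strand is not given in the sources used here, so reads of overlapping genes may not be told apart.

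INSIG1, whose protein keeps the SREBP precursors in the endoplasmic reticulum, rose and fell within a day. It was at 239 and 213 CPM at 0 h, 263 and 259 at 0.5 h, 752 and 678 at 1.5 h, then 2219.8 and 1843 at 3 h. It was at 391 and 355 CPM at 6 h, 152 and 154 at 24 h, 194 and 194 at 48 h, then 238 and 209 at 72 h. The 3 h libraries were far above all others, the 24 h libraries were below both 0 h libraries, and at 72 h the libraries overlapped those at 0 h. Log2 fold changes were 1.66 (SE 0.11) at 1.5 h, 3.17 (SE 0.12, edgeR adjusted p = 1.85e-10) at 3 h, 0.72 (SE 0.11) at 6 h and -0.56 (SE 0.11, edgeR adjusted p = 0.000643) at 24 h. INSIG1 lies on chromosome 7 at 155297776 to 155310235, with no annotated gene overlapping it, and its start follows the promoter stretch printed above.

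INSIG2, the second retention gene, was expressed far lower than INSIG1 and fell before it rose. It was at 9.76 and 5.99 CPM at 0 h, 5.15 and 5.02 at 3 h, 5.08 and 4.07 at 6 h, 14.9 and 12.97 at 24 h, 12.7 and 11.2 at 48 h, then 16.9 and 10.3 at 72 h. Both 6 h libraries were below the 0 h libraries, and all libraries from 24 h on were above them. It fell at 6 h (-0.79, SE 0.25, edgeR adjusted p = 0.0158) and rose at 24 h (0.82, SE 0.24, edgeR adjusted p = 0.00929), 48 h (0.60) and 72 h (0.79). These calls rested on single libraries. Without the first 0 h library the 6 h value was -0.39 and without the second 6 h library -0.62. Without the second 0 h library the later values were 0.52, 0.30 and 0.48, without the first 24 h library the 24 h value was 0.72, and without the first 72 h library the 72 h value was 0.38, none of them called. The 48 h call was lost with most single libraries left out, and limma on log2(TPM + 1) called none of the 4. On the per-length scale, INSIG1 TPM divided by INSIG2 TPM was 16.7 and 29.1 at 0 h, 266 and 199 at 3 h, 49.7 and 77.8 at 6 h, then 8.47 and 15.9 at 72 h.

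SREBF2 and SCAP were lower from 24 h on. SREBF2, tied mainly to sterol genes, was at 223 and 273 CPM at 0 h, 322 and 264 at 3 h, 263 and 261 at 6 h, 157 and 177 at 24 h, then 131 and 155 at 72 h. The 3 and 6 h libraries overlapped those at 0 h (0.08, SE 0.12, not called at 6 h), and the later ones were below them (-0.57, SE 0.12, at 24 h and -0.79, SE 0.12, edgeR adjusted p = 8.68e-05, at 72 h). The early calls of SREBF2 depended on the scaling and on single libraries. At 6 h it was called lower under total-count scaling (-0.28) and higher with the GC trend removed (0.31), and at 3 h it was called higher with the GC trend removed (0.36), without the second 0 h library (0.39) and without the second 3 h library (0.38), against 0.24 and not called in the fit reported here. SCAP, the escort, fell at 6 h (-1.09, SE 0.13) and stayed lower at 72 h (-0.76, SE 0.13). SREBF2 TPM divided by SREBF1 TPM was 1.03 and 0.841 at 0 h, 5.60 and 5.15 at 6 h, then 2.04 and 1.60 at 72 h.

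In the mevalonate pathway, which builds isoprenoid units from acetyl-CoA, HMGCS1 and IDI1 rose before falling back, while MVK and MVD were called only as lower. HMGCS1 encodes the synthase that makes hydroxymethylglutaryl-CoA. It was at 172 and 129 CPM at 0 h, 195 and 193 at 0.5 h, 288 and 293 at 1.5 h, then 839 and 782 at 3 h. It was at 1343 and 1332 CPM at 6 h, 100.3 and 103 at 24 h, 127 and 127 at 48 h, then 133 and 104 at 72 h. The 6 h libraries were the highest, and the 24 h libraries lay below both 0 h libraries. HMGCS1 lies on chromosome 5 at 43289395 to 43313512 and overlaps an antisense gene. The log2 fold change was 0.94 (SE 0.13) at 1.5 h, 2.43 (SE 0.14) at 3 h, 3.15 (SE 0.14, edgeR adjusted p = 3.68e-10) at 6 h and -0.57 (SE 0.13) at 24 h, and the step from 6 to 24 h was -3.72 (SE 0.14, edgeR adjusted p = 4.27e-10). At 72 h it was called lower (-0.35) although its libraries overlapped those at 0 h, and the value was -0.12 and not called without the first 0 h library and -0.18 and not called without the second 72 h library. That call was also lost without either 6 h library or the second 24 h library. With DESeq2 the 72 h value was -0.30 and not called.

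IDI1, the isomerase of isopentenyl diphosphate, was highest at 3 h, with 140.1 and 127 CPM at 0 h, 248 and 260.3 at 1.5 h, 367 and 331 at 3 h, 218 and 215 at 6 h, then 108 and 111 at 24 h. All libraries from 1.5 to 6 h were above both 0 h libraries, and those at 24 h were below both. The 24 h value was -0.29 and not called, but it was called lower under total-count scaling (-0.54), by limma on log2(TPM + 1) (-0.46), with the GC trend removed (-0.37), and without the second 0 h library (-0.35) or either 72 h library. The log2 fold change was 1.39 (SE 0.12, edgeR adjusted p = 6.32e-07) at 3 h and 0.70 at 6 h, the latter 0.30 and not called by limma on log2(TPM + 1). ACAT2, the thiolase that starts the pathway, was at 79.6 and 84.1 CPM at 0 h, 101 and 96.4 at 3 h, 44.7 and 49.2 at 24 h, then 44.2 and 40.98 at 72 h. It was called higher at 3 h (0.27, SE 0.09, edgeR adjusted p = 0.0216), a call whose sign changed under total-count scaling (-0.01) and with limma on log2(TPM + 1) (-0.18) and which was lost without the first 0 h library or the first 3 h library (0.23 in both cases) or without either 6 h library. Its fall at 24 h (-0.80, SE 0.09) and 72 h (-0.94, SE 0.09, edgeR adjusted p = 5.35e-07) was called. ACAT2 overlaps TCP1 and SOD2 on the other strand.

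MVK, mevalonate kinase, was at 27.01 and 32.6 CPM at 0 h, 18.8 and 16.9 at 3 h, 12.8 and 11.9 at 6 h, 9.39 and 9.32 at 24 h, 8.59 and 8.31 at 48 h, then 7.47 and 8.22 at 72 h. Each of these later pairs was below both 0 h libraries. It fell by 1.28 (SE 0.12) on the log2 scale at 6 h and by 1.93 (SE 0.12, edgeR adjusted p = 8.49e-09) at 72 h. MVK shares its locus with MMAB on the other strand. PMVK, the next kinase, was low throughout, at 5.28 and 6.73 CPM at 0 h, 2.95 and 3.12 at 6 h, 7.46 and 9.15 at 24 h, then 4.54 and 4.25 at 72 h. It fell at 6 h (-0.98, SE 0.20, edgeR adjusted p = 0.000637) and was called higher at 24 h (0.47, SE 0.18, edgeR adjusted p = 0.0405), a call lost under total-count scaling (0.22), without the first 0 h library (0.31), without the second 24 h library (0.29) and without any one of the 1.5 or 6 h libraries. MVD, the decarboxylase, fell by 0.86 at 6 h and 1.15 at 72 h, and FDPS, which makes farnesyl diphosphate, by 0.37 and 0.87. The 6 h value of FDPS was not called without the second 0 h library (-0.24) or the second 6 h library (-0.31).

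Of the 11 sterol enzymes, SQLE and LSS, which catalyse consecutive steps, moved in opposite directions. SQLE, squalene epoxidase, an oxygen-requiring control point of the pathway, was at 149.6 and 134 CPM at 0 h, 166 and 167 at 0.5 h, 162 and 183 at 1.5 h, then 394 and 368 at 3 h. It was at 939 and 985 CPM at 6 h, 802 and 868 at 24 h, 751 and 778 at 48 h, then 855 and 739 at 72 h. Every library from 3 h on was above both 0 h libraries. Its log2 fold change was 1.43 (SE 0.10) at 3 h, 2.76 (SE 0.11, edgeR adjusted p = 1.05e-10) at 6 h and 2.49 (SE 0.11, edgeR adjusted p = 2.03e-10) at 72 h. LSS, lanosterol synthase, which acts on the product of SQLE, was at 103 and 120.5 CPM at 0 h, 107 and 88.7 at 3 h, 59.5 and 60.1 at 6 h, 19.98 and 20.5 at 24 h, 25.5 and 22.7 at 48 h, then 24.7 and 28.6 at 72 h. The 3 h libraries overlapped those at 0 h and all from 6 h on were below them. It fell by 0.90 (SE 0.12) on the log2 scale at 6 h, 2.47 (SE 0.12, edgeR adjusted p = 1.04e-09) at 24 h and 2.07 (SE 0.12) at 72 h. LSS, and likewise SREBF2, IDI1, MSMO1, SCD and ACACA, were chosen for a fuller account after their values were seen.

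On the per-length scale SQLE and LSS began level and ended far apart. SQLE TPM divided by LSS TPM was 1.19 and 0.997 at 0 h, 1.58 and 1.82 at 0.5 h, 2.06 and 2.27 at 1.5 h, 4.001 and 4.67 at 3 h, 17.8 and 17.6 at 6 h, 38.1 and 45.5 at 24 h, 25.8 and 35.8 at 48 h, then 35.05 and 27.04 at 72 h. The ratio in every treated library was above both 0 h ratios. LSS lies on chromosome 21 at 46188141 to 46228824 and overlaps 2 antisense genes, and SQLE overlaps no annotated gene.

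**Figure D3:**
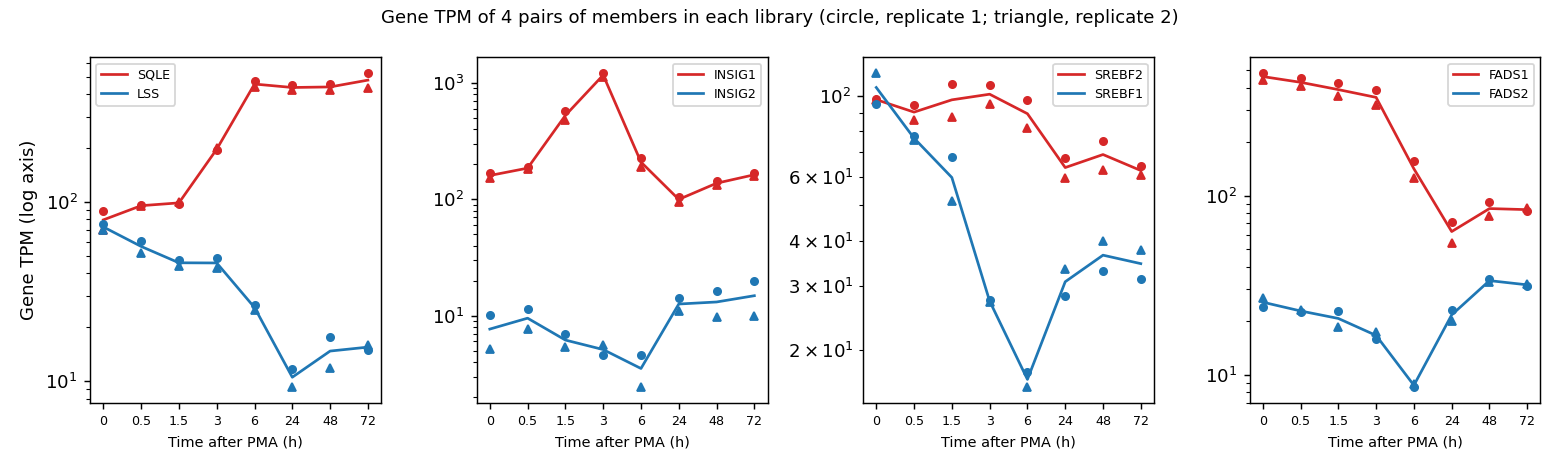
Gene TPM (log axis) of 4 pairs of members in each library, by time after PMA on an evenly spaced axis, with lines through the means of 2 libraries. SQLE and LSS start at a similar level and lie further apart in every treated library, INSIG1 peaks at 3 h over a low INSIG2, SREBF1 drops away from SREBF2 with its lowest level at 6 h, and FADS1 approaches FADS2 from above by 24 h.

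CYP51A1, the lanosterol demethylase, rose and then fell below its starting level. It was at 170.2 and 158 CPM at 0 h, 216 and 237 at 1.5 h, 355 and 317 at 3 h, 330.0 and 342 at 6 h, 121 and 129.6 at 24 h, then 131 and 108 at 72 h. The 3 and 6 h libraries were above and the 24 and 72 h libraries below both 0 h libraries. The log2 fold change was 1.04 (SE 0.10, edgeR adjusted p = 2.91e-06) at 3 h, 1.03 (SE 0.10) at 6 h and -0.46 (SE 0.10, edgeR adjusted p = 0.00177) at 72 h. The 24 h fall (-0.39) was not called without the first 24 h library (-0.33), and the 48 h fall (-0.34) was not called without the first 0 h library (-0.28) or either 48 h library. MSMO1, which removes methyl groups after CYP51A1, stayed high, with 69.4 and 43.6 CPM at 0 h, 189 and 168 at 3 h, 219 and 205 at 6 h, 106 and 105 at 24 h, then 163 and 119.6 at 72 h. Its 0 h libraries differed from each other by more than those of most members, yet all libraries from 3 h on were above both (1.91, SE 0.18, at 6 h and 1.32, SE 0.18, edgeR adjusted p = 2.04e-05, at 72 h).

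The other sterol enzymes moved less or fell. NSDHL, the decarboxylating dehydrogenase that works with MSMO1, rose by 0.43 at 24 h, 0.55 at 48 h and 0.47 (SE 0.10, edgeR adjusted p = 0.00145) at 72 h, the 24 h value being 0.18 and not called under total-count scaling and 0.30 and not called without the second 24 h library. FDFT1, squalene synthase, fell by 1.14 at 6 h and 0.96 at 72 h. DHCR7, the last reductase before cholesterol, fell by 1.56 (SE 0.13, edgeR adjusted p = 2.6e-07) at 24 h and 1.19 at 72 h. HSD17B7, a ketoreductase, fell by 0.57 at 6 h and 0.84 at 72 h. Its 6 h value was -0.48 without the first 0 h library, at the edge of the threshold (edgeR adjusted p = 0.05). TM7SF2, a sterol reductase, fell by 0.89 at 6 h and 0.85 at 24 h and had log2 fold changes of -0.07 and -0.12 at 48 and 72 h, neither called. EBP, the isomerase, was called only at 24 h (-0.33, edgeR adjusted p = 0.0182), with a call lost without the second 0 h library (-0.18) or the first 24 h library (-0.25). SC5D, a desaturase, was called only at 24 h too (0.30, edgeR adjusted p = 0.0398), and its value was 0.05 under total-count scaling and 0.15 without the second 0 h library, neither called, with the call also lost without most other single libraries.

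STARD4, a cytosolic carrier of sterols between membranes, rose and stayed up. It was at 86.1 and 60.9 CPM at 0 h, 124 and 121 at 1.5 h, 206 and 183 at 3 h, then 170.0 and 151 at 6 h. It was at 139 and 129 CPM at 24 h, 179.8 and 161 at 48 h, then 209 and 143 at 72 h. Every library from 1.5 h on was above both 0 h libraries. The log2 fold change was 1.41 (SE 0.18, edgeR adjusted p = 2.34e-05) at 3 h and 1.26 (SE 0.18, edgeR adjusted p = 3.16e-05) at 72 h. STARD4 overlaps an antisense gene, STARD4-AS1.

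**Figure D4:**
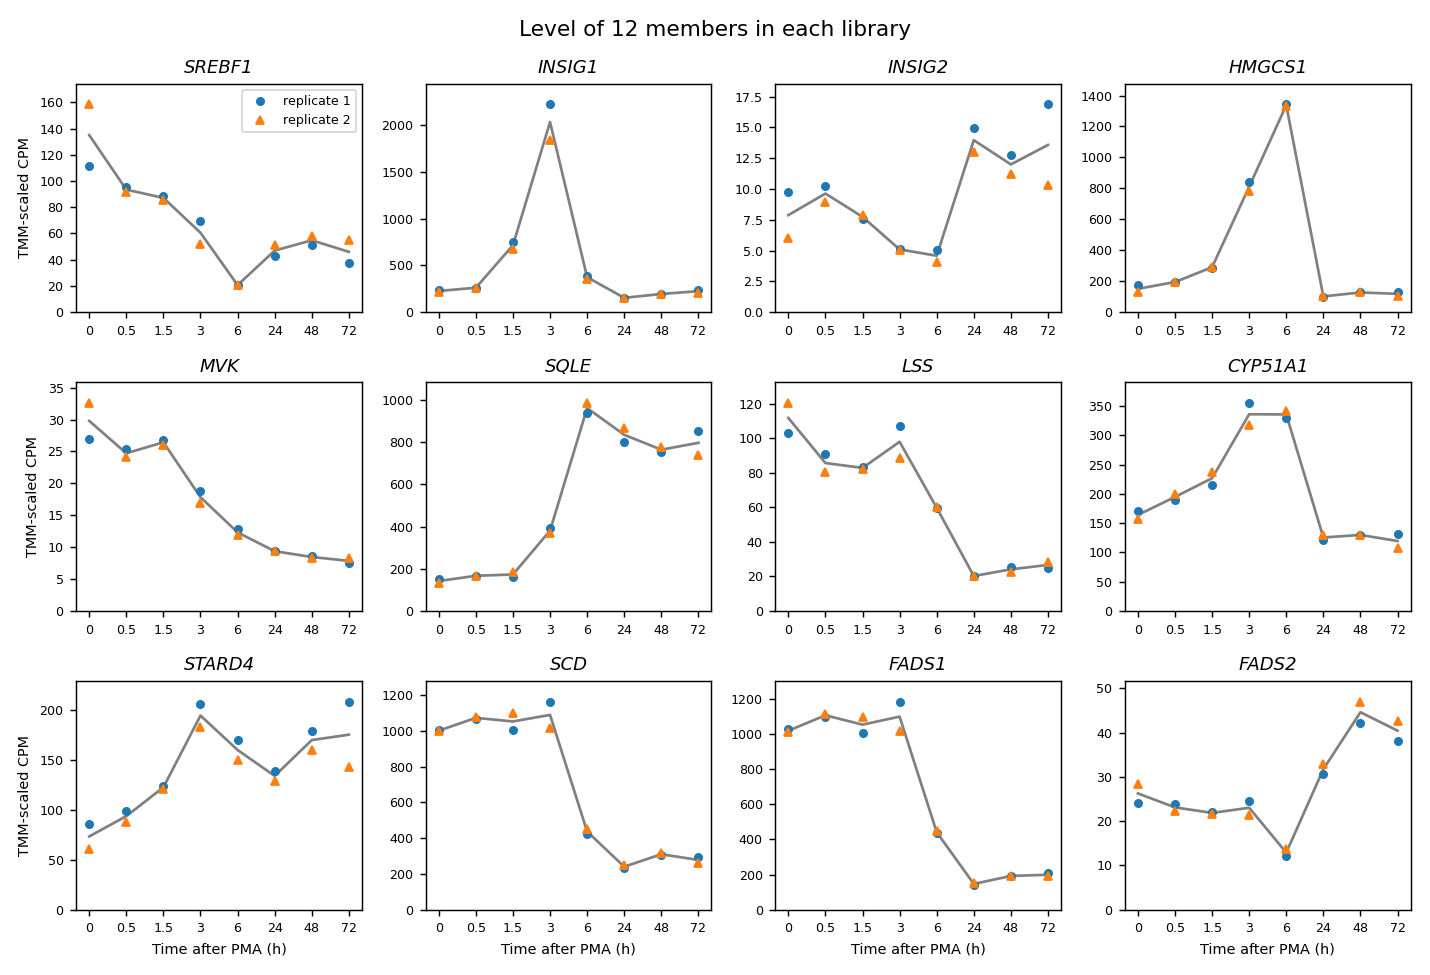
TMM-scaled CPM of 12 members in each library (circle, replicate 1; triangle, replicate 2) by time after PMA, with a line through the mean of 2 libraries and each vertical axis starting at 0. INSIG1 peaks at 3 h and HMGCS1 at 6 h, SQLE and STARD4 stay above 0 h, and LSS, MVK, SCD and FADS1 stay below it from 6 h on.

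All 9 fatty acid genes fell from 3 to 6 h, and from 6 to 24 h FADS1 (-1.59), SCD (-0.86) and ELOVL5 (-0.37) fell further. At 3 h against 0 h ELOVL5 was higher and ACACA and ELOVL6 were lower. At 6 h 8 of the 9 were lower and ELOVL5 was not called, and 7 of the 9 were lower at all of 24, 48 and 72 h, the others being ACSS2, not called at 72 h, and FADS2. ELOVL6, which lengthens saturated chains, was at 97.7 and 84.7 CPM at 0 h, 75.3 and 71.04 at 3 h, 17.1 and 15.8 at 6 h, 26.7 and 25.6 at 24 h, then 26.9 and 23.7 at 72 h. The 6 h libraries were the lowest. It fell by 2.47 (SE 0.11, edgeR adjusted p = 3.95e-10) on the log2 scale at 6 h and by 1.85 (SE 0.11) at 72 h. FADS1, a desaturase of polyunsaturated fatty acids and the fatty acid member with the highest mean TPM, was at 1029 and 1009.5 CPM at 0 h, 1183 and 1016 at 3 h, 434 and 448 at 6 h, 142 and 151 at 24 h, then 207 and 191 at 72 h. All libraries from 6 h on were below both 0 h libraries. It fell by 1.21 (SE 0.10) at 6 h, 2.80 (SE 0.10, edgeR adjusted p = 4.01e-11) at 24 h and 2.36 (SE 0.10) at 72 h.

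FADS2, the neighbouring desaturase gene, on chromosome 11 at 61792980 to 61867354, which overlaps FADS1 on the other strand, was higher late. It was at 24.1 and 28.4 CPM at 0 h, 12.1 and 13.7 at 6 h, 30.6 and 32.9 at 24 h, 42.3 and 46.96 at 48 h, then 38.2 and 42.7 at 72 h. The 6 h libraries were below and those from 24 h on above both 0 h libraries. Its log2 fold change was -1.03 (SE 0.12, edgeR adjusted p = 5.25e-06) at 6 h, 0.27 (not called) at 24 h, 0.76 (SE 0.11, edgeR adjusted p = 6.69e-05) at 48 h and 0.62 (SE 0.11) at 72 h. FADS1 TPM divided by FADS2 TPM was 20.2 and 16.3 at 0 h, then 2.61 and 2.64 at 72 h. ELOVL5, an elongase of polyunsaturated chains, was at 248 and 217 CPM at 0 h, 353 and 334 at 3 h, 207 and 217 at 6 h, then 167 and 141 at 72 h. It rose at 3 h (0.57, SE 0.10, edgeR adjusted p = 0.000411, but 0.19 and not called by limma on log2(TPM + 1)), its 6 h libraries overlapped those at 0 h, and it fell at 72 h (-0.59, SE 0.10, edgeR adjusted p = 0.000168).

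SCD, stearoyl-CoA desaturase, which makes monounsaturated fatty acids, was at 1002 and 999 CPM at 0 h, 1161 and 1016 at 3 h, 424 and 449 at 6 h, 233 and 247 at 24 h, then 292 and 263 at 72 h. All libraries from 6 h on were below both 0 h libraries, and the fall was 2.06 (SE 0.10, edgeR adjusted p = 7.52e-10) on the log2 scale at 24 h. ACACA, the carboxylase that commits acetyl-CoA to fatty acids, was at 234 and 262 CPM at 0 h, 72.6 and 75.3 at 6 h, 141 and 132 at 24 h, then 104 and 93.6 at 72 h. It fell by 1.74 (SE 0.11, edgeR adjusted p = 8.38e-09) at 6 h, rose from 6 to 24 h by 0.88 (SE 0.11) and fell again from 24 to 72 h (-0.46, SE 0.10, edgeR adjusted p = 0.00503). At 3 h the falls of ACACA (-0.32) and ELOVL6 (-0.32) were not called without the second 3 h library (-0.18 and -0.27), nor that of ACACA without the second 0 h library (-0.24) or that of ELOVL6 without the first (-0.21). FASN, fatty acid synthase, fell by 0.80 at 6 h and 1.28 (SE 0.17, edgeR adjusted p = 1.68e-05) at 72 h. ACLY, which makes acetyl-CoA from citrate, fell by 0.58 and 0.74 at these times. ACSS2, which makes it from acetate, fell by 1.11 at 6 h and was not called at 72 h (-0.20). Its 48 h fall (-0.28) was not called without the second 0 h library (-0.19), without either 48 h library or several others, or by DESeq2 (-0.24).

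Transcripts of ACACA that start within 200 bases of transcript ACACA-231 carried 49.6 and 52.7 TPM at 0 h, 13.6 and 12.2 at 6 h, then 17.9 and 18.3 at 72 h. Those that start near ACACA-237, further upstream, carried 2.21 and 0.872 TPM at 0 h, 2.87 and 3.66 at 48 h, then 2.17 and 1.98 at 72 h. The first group was lower in both libraries at 6 and 72 h, and the second was above the 0 h range at 48 h and overlapped it at 72 h. In SREBF1, protein-coding transcripts carried 41.2 and 54.9 TPM at 0 h, then 5.41 and 6.14 at 6 h, and retained-intron transcripts 50.7 and 57.3 and 10.9 and 8.47, so both kinds were lower at 6 h. Transcript values are estimates that share reads, and no test was made on them.

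The steps between time points show when each change happened. From 3 to 6 h 2 members rose (HMGCS1 and SQLE) and 23 fell (41.2% of all genes were called, 19% higher and 22.1% lower), the largest falls being those of INSIG1 (-2.45, SE 0.12) and ELOVL6 (-2.15, SE 0.11). From 6 to 24 h 10 rose and 15 fell (56.6% of all genes were called, 30.8% higher and 25.8% lower), with HMGCS1 at -3.72, INSIG2 at 1.61, PMVK at 1.46 and FADS2 at 1.30. From 24 to 72 h 7 rose and 2 fell (26.3% of all genes were called, 13.9% higher and 12.4% lower). The 7 were INSIG1 (0.55), LSS (0.40), TM7SF2 (0.73), EBP (0.39), ACSS2 (0.37), FADS1 (0.44) and FADS2 (0.35), and the 2 were PMVK (-0.92) and ACACA (-0.46). Without either 24 h library 5 members were called from 24 to 72 h.

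Lists of other genes around the pathway, none of them members, are read against 31.7% of all genes higher and 26.9% lower at 72 h. Of 12 genes that process or degrade SREBP precursors and INSIG proteins, 8 were higher and 3 lower at 72 h (list median 0.40). VCP, the ATPase that extracts proteins from the endoplasmic reticulum, rose by 1.37 at 6 h and 1.18 at 72 h, and ERLIN1 fell by 1.40 and 1.02. ERLIN2 (-0.29) and the ubiquitin-conjugating enzyme gene UBE2G2 (-0.46) were lower at 72 h as well. Of 12 genes of the isoprenoid branches, 3 were higher and 3 lower at 72 h (list median 0.04). NUS1, a subunit of the dolichol synthase, was at 0.65 at 72 h, and FNTA, a prenyltransferase subunit, at 0.90 at 6 h. PDSS1 (-0.40), FNTB (-0.53) and RABGGTB (-0.59) fell by 72 h.

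Of 15 genes of sterol efflux, storage and lysosomal release, 14 were tested, and at 72 h 8 were higher and 1 lower (list median 0.39). ABCA1, which exports cholesterol from cells, was at 0.123 and 0.193 CPM at 0 h, 4.88 and 4.47 at 3 h, then 30.9 and 21.7 at 72 h. Its log2 fold change was 4.91 (SE 0.33) at 6 h and 7.35 (SE 0.31, edgeR adjusted p = 1.46e-10) at 72 h, from a 0 h level of 4 and 6 reads. SCARB1, a receptor for high-density lipoprotein, fell by 1.29 (SE 0.13). Of 17 other genes of fatty acid activation, elongation and synthesis, 5 were higher and 6 lower at 72 h (list median -0.15). The 5 were ACSL1 (1.07), ACSL4 (1.98), ACSL5 (1.94, after 4.17 at 6 h), which attach coenzyme A to fatty acids, and the elongases ELOVL1 (1.15) and ELOVL7 (1.57). Of 12 genes of fatty acid oxidation, 3 were higher and 5 lower at 72 h (list median -0.13). ACADVL (0.43) rose, and PPARGC1A, with 0 reads in both 0 h libraries, had 17 in each 72 h library, at least 5.33-fold higher than a floor of 3 reads per library.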

How the data were processed

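The deposited tables give, per the file headers, an estimated count of reads (which need not be whole), a TPM value, a length and an effective length for each of 177456 Ensembl transcripts in each library. TPM is relative to all transcripts of the library after division by effective length, per the file headers. Salmon is named in the submitters' processing notes without a version. They list hg19 and hg38 with no role, and strandedness and bias settings are not given in the sources used here.

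Transcripts were assigned to genes with GENCODE release 29 (94.1% matched), and the estimated counts were summed per gene and rounded. edgeR 4.0.16 in R 4.3.3 was fitted to all 16 libraries and 17559 genes after filterByExpr, with TMM factors and a prior count of 0.125, and quasi-likelihood tests were adjusted by Benjamini-Hochberg over all genes of a comparison. Alternatives used DESeq2 1.42.0, limma 3.58.1 on log2(TPM + 1), other scalings and filters, a GC correction, a replicate block, a threshold of 0.01 and each library left out. The fitting script was tested on simulated data. The effective length entered only a check that libraries differ in fragment length. The median gap between length and effective length of longer transcripts was 210 to 221 bases in replicate 1. In replicate 2 it was 199 bases at 0 h and 229 to 248 at the treated times. The part of this difference in the results was not tested.

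The members and lists were chosen with earlier results of these data known. Every member is named. Values by library go to the members of each role with the largest called change at 6, 24 and 72 h or the highest mean TPM, and to those called in both directions, and from the other lists to the genes with the largest called change at 6 and 72 h and those called against the list median at 72 h. Genes named outside this rule are marked as such. Some genes of these pathways are not analysed here.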

Additional observations from a re-analysis of the deposited data

How the results depend on the processing

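Of 231 member values against 0 h under 26 alternatives, 6006 in all, 5692 kept their side of the threshold, 163 were no longer called and 143 became called. The other 8 changed sign and were called in the main fit, the alternative or both. Changes of sign in values called in neither fit were not counted apart and are among the 5692. FASN at 3 h, for example, lay between -0.30 and 0.21 with 1 library left out. Under total-count scaling, the values among the 8 were SREBF2 at 6 h (-0.28), ACAT2 at 3 h (-0.013), FDPS at 3 h (-0.23), NSDHL at 6 h (-0.29) and FADS1 at 3 h (-0.18). With limma on log2(TPM + 1) the value was ACAT2 at 3 h (-0.18). The rest were FASN at 3 h with the GC trend removed (0.27) and with the replicate block and GC trend removed (0.27). Total-count scaling gave 21 members called at 3 h (8 higher, 13 lower) and medians of -0.17, -1.02, -0.82, -0.71 and -0.90 at 3, 6, 24, 48 and 72 h. The all-gene medians at 3, 6, 24 and 72 h were also below 0 under it, while TMM scaling holds them near 0. limma on log2(TPM + 1) gave medians of -0.17 at 3 h, -0.92 at 6 h, -0.089 from 6 to 24 h and 0.13 between 24 and 72 h. The 6 h median was -0.38 with the GC trend removed, and the cause was not tested. Without the low-count filter 5 members were called at 0.5 h, and at an adjusted p under 0.01 4 were called at 1.5 h and 5 from 24 to 72 h, by the stricter threshold itself. With 1 library left out, the lone library of its time point being assumed to vary like the other groups, 0 to 13 members were called at 0.5 h, 3 to 14 at 1.5 h and 5 to 11 from 24 to 72 h, and the median for 3 to 6 h lay between -0.77 and -0.52.

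The replicate numbers shared no stated batch, so they were not taken to pair the libraries. Differences between replicates nonetheless correlated between time points by -0.30 to 0.60, over 0.1 in 24 of 28 pairs. Each of the 8 time points' differences correlated positively with the mean of the others (0.06 to 0.62), a hint of pairing from the data only. With the number as a block (replicate block), 11, 15, 27, 33, 27 and 27 members were called at 1.5, 3, 6, 24, 48 and 72 h, and 7 of the 231 member values became called and none was lost. With the replicate block and GC trend removed, the 6 h median was -0.38.

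Counts over all genes moved by more than 1.5 times in these cases. At 0.5 h 30 genes were called, against 123 with DESeq2, 1538 without the filter, 46 with the GC trend removed, 48 with the block as well, 18 at an adjusted p under 0.01 and 3585 without the first 0 h library. At 1.5 h 3003 were called, against 1160 at an adjusted p under 0.01, 5008 and 1006 without the first and the second 0 h library, and 1217 and 1061 without the first and the second 1.5 h library. From 24 to 72 h 4617 were called, against 2686 at an adjusted p under 0.01 and 2345 without the second 24 h library. The effect of depth on the members was not tested. The lowest had 69 reads in a library, and 2 libraries per time point limit every comparison.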
